A study of Arabidopsis thaliana with 39 samples.

Results

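The comparison set seedlings after 48 h in L-glutamate (L-Glu) against seedlings after 24 h, over all 20001 gene rows of the deposited expression table. It used 6 of the 39 libraries of the series, the 3 titled L-Glu at 24 h and the 3 titled L-Glu at 48 h, and asked which parts of the response to L-Glu faded between these times and which went on. All libraries came from total RNA of whole Arabidopsis thaliana seedlings of the ecotype Col-0, 14 days old when 20 mM L-Glu or 20 mM urea was given, kept in liquid culture with Murashige-Skoog medium and sucrose under continuous light. Urea, another source of nitrogen, was given at the same dose and sampled at the same times in 3 libraries each, and the 3 L-Glu and 3 urea libraries at 12 h were used to sort genes by their earlier response. The mock group was sampled at 0 h only. At 12 h, 24 h and 48 h L-Glu could therefore be set beside urea but not beside untreated seedlings. Nothing in the labels ties replicates to separate cultures, so every p-value here covers the spread among 3 libraries a group, and that spread may be technical. A whole seedling holds many cell types, so fewer cells of a type and less RNA per cell cannot be told apart.

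In plants, glutamate links nitrogen and carbon metabolism and is also sensed outside cells, where glutamate receptor-like channels pass calcium signals after wounding. Defence responses that begin with pattern recognition receptors run through MAP kinases, WRKY transcription factors and the hormones salicylic acid, jasmonate and ethylene, and they are commonly accompanied by lower expression of nuclear photosynthesis genes. Heat shock factors bind inverted repeats of GAA in the promoters of chaperone genes when proteins unfold, and abscisic acid acts through bZIP factors that bind ACGTG cores in genes for dehydration proteins.

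Promoters of 5 genes that the results turn on are shown here, as the 250 bases before the annotated gene start, read 5′ to 3′ on the gene's strand from the RefSeq assembly TAIR10.1. The submitters' processing notes name TAIR10, and the expression table itself holds no coordinates. HSP17.4 (chr3:16984868-16985117, minus strand) is a cytosolic small heat shock protein and HSFA2 (chr2:11135374-11135623, plus strand) a heat shock factor. Both were among the heat shock genes that rose from 24 h to 48 h. LEA4-5 (chr5:2090431-2090680, minus strand), a late embryogenesis abundant protein, stands for the dehydration genes that rose. FRK1 (chr2:8329945-8330194, minus strand), a receptor-like kinase used as a marker of pattern-triggered immunity, and PHI-1 (chr1:12851733-12851982, plus strand), a phosphate-induced protein, stand for the immunity genes that fell. Capitals mark the letters GAANNTTCNNGAA of the heat shock element in HSP17.4 and HSFA2, the ACGTG core of abscisic acid response elements in LEA4-5, and the TTGAC core of W-boxes, the sites that WRKY factors bind, in FRK1 and PHI-1, each searched on both strands.
HSP17.4: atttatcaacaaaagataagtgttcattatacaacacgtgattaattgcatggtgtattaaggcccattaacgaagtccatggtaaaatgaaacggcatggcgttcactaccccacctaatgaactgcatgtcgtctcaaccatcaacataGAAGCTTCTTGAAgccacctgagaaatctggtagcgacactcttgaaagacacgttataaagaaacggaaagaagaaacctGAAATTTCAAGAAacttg
HSFA2: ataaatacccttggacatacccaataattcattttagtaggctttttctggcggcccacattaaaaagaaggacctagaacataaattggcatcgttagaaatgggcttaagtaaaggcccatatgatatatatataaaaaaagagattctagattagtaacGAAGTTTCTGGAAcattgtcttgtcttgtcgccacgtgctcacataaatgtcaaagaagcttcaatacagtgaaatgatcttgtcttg
LEA4-5: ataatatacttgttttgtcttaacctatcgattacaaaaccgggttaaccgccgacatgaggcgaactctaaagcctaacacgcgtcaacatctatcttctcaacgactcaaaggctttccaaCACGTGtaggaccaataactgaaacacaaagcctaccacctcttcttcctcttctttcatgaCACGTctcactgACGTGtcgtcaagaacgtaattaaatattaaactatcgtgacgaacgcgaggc
FRK1: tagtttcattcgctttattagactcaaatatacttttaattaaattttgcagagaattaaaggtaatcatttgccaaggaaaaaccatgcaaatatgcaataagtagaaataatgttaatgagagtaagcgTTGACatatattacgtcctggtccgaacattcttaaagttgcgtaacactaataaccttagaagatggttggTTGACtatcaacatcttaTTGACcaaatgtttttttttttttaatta
PHI-1: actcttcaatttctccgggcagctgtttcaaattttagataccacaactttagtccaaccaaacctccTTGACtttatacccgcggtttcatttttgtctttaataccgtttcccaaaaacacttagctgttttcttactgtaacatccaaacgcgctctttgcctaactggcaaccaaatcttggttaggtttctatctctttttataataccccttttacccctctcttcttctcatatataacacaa
The HSP17.4 window held 2 heat shock elements, from −99 to −87 and from −18 to −6 relative to the gene start, and the HSFA2 window held 1, from −88 to −76. The 4 ACGTG matches in LEA4-5 include 2 that overlap on opposite strands in the palindrome CACGTG, and FRK1 held 3 W-box cores and PHI-1 held 1. Among the 19658 genes of the table with such a window, the heat shock element was in 0.427%, the ACGTG core in 23.9% and the W-box core in 45.5%. The heat shock element was in 1.01% of the windows of genes higher at 48 h and in 0.415% of those lower. It was in 2 of the 15 small heat shock protein genes and in 2 of the 16 heat shock factors and large chaperones. HSP17.4 and HSFA2 were among these carriers, and most members of both lists lacked it. ACGTG was in 14 of the 22 genes of the abscisic acid list (63.6%), and TTGAC in 20 of the 25 genes of the pattern-triggered immunity list. TGTCTC, a short form of the auxin response element, was in 4 of the 18 Aux/IAA genes and in 10.6% of all windows. It was in 1 of the 28 genes of xyloglucan endotransglucosylases, enzymes of the cell wall. In windows of genes higher and lower at 48 h, ACGTG was in 29.3% and 23%, TTGAC in 46.5% and 48.9%, and TGTCTC in 9.18% and 11.2%. These matches describe the windows only and were not tested against the expression values.

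The 6 libraries differed in more than the named genes. The deposited values are normalised expression signals, not counts, so the sequencing depth behind them is unknown and no counting error can be given. Their sums ran from 5278620 to 5886170 at L-Glu 24 h and from 3197320 to 4090400 at L-Glu 48 h, and the 100 strongest genes held 30.4% to 33.4% of the sum at 24 h and 18.3% to 24.4% at 48 h. Genes of the mitochondrial genome held 0.0397% to 0.0899% of the sum at L-Glu 24 h and 0.249% to 0.541% at L-Glu 48 h, with at most 0.0919% in the urea libraries of these times. L-Glu 48 h replicate 2 stood apart: it listed 443 genes at 0 where the other 5 libraries listed none, and it deviated from its group mean more than any other of the 39 libraries. Of the urea 48 h libraries, replicates 1 and 3 listed 226 and 186 genes at 0 and replicate 2 listed 0 genes there. Counts of libraries that list a gene at 0 are therefore bounded by which libraries list any 0. L-Glu 24 h replicate 3 had higher values of heat shock genes than its 2 group mates. The part of these differences in the results was not tested, and counts that moved by over 1.5 times without a library are given beside the counts themselves.

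From 24 h to 48 h in L-Glu, 3831 of 20001 genes (19.2%) passed the test, an adjusted p below 0.05 from limma on log2(value + 1). Of these, 1403 (7.01% of all genes) were higher at 48 h and 2428 (12.14%) were lower, so that 36.6% of the called genes were higher. A change of at least 2-fold accompanied 1082 of the higher calls and 1966 of the lower calls. The 12 largest rises among called genes without overlap between the libraries included 6 heat shock proteins, and the 12 largest falls included the Aux/IAA genes IAA29 and SHY2, the SAUR-like gene AT4G34760 and the cell wall genes XTH4 and XTH9. In urea over the same times 253 genes (1.26%) rose and 219 (1.09%) fell. A test of the difference between the L-Glu change and the urea change called 837 genes (4.18%) higher and 1835 (9.17%) lower. The count of 3831 dropped to 1379 without L-Glu 24 h replicate 1, 1983 without L-Glu 24 h replicate 2 and 2111 without L-Glu 48 h replicate 1. Those fits called 467, 681 and 718 genes higher and 912, 1302 and 1393 lower, in that order. Leaving out L-Glu 24 h replicate 3 gave 1219 higher and 1985 lower calls. Leaving out L-Glu 48 h replicate 2 or 3 gave 990 or 1279 higher and 1881 or 2451 lower calls. The median change of all genes was −0.09 on the log2 scale, and when every library was scaled to the same total it became 0.49 and 84.0% of the calls were higher, against 48.06% after quantile normalisation. Both settings kept all 1403 higher calls, but of the 2428 lower calls 1020 were kept at equal totals and 1936 after quantile normalisation. No call turned to the opposite direction. Scaling to equal totals shifts all genes nearly alike, so the absence of turned calls there says little. Counts of group members below are to be read against the shares of all genes called higher, 7.01%, and lower, 12.14%, in the main test. At equal totals 5361 of the 20001 genes were called higher and 1021 lower, and after quantile normalisation 1798 and 1943. Counts under those settings, or without a library, are to be read against the all-gene counts of the same fit. At equal totals the shift of the median of all genes to 0.49 also applies.

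**Figure D1:**
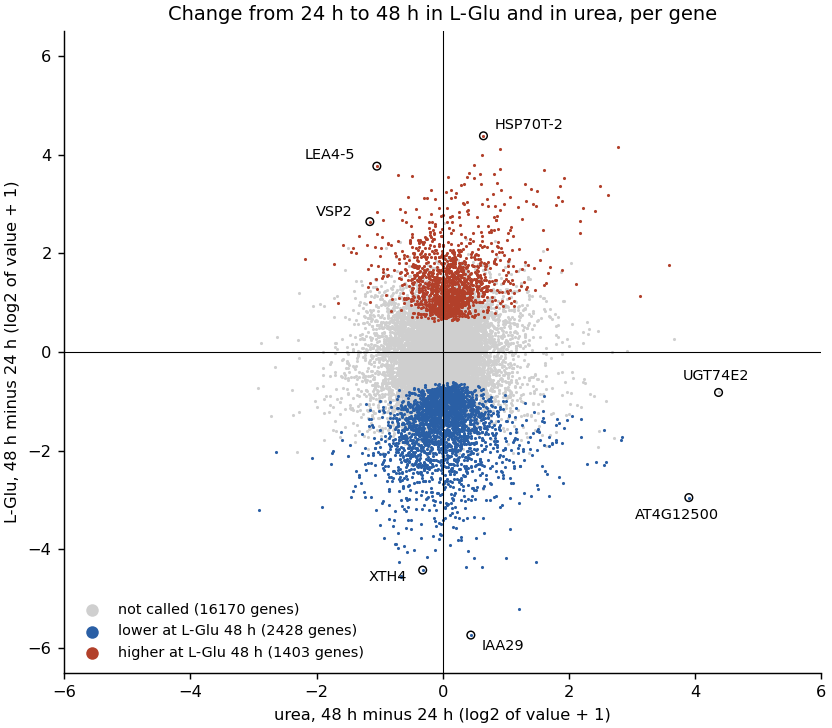
Change from 24 h to 48 h of each gene in urea (x axis) and in L-Glu (y axis), both as differences of mean log2(value + 1) over 3 libraries a group, with genes coloured by their call in L-Glu. The 1403 higher and 2428 lower genes spread along the L-Glu axis, and AT4G12500 lies at 3.90 in urea and −2.95 in L-Glu.

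Many of the genes that were higher in L-Glu than in urea at 12 h fell between 24 h and 48 h. At 12 h, 3559 genes (17.8%) were called and at least 2-fold higher in L-Glu than in urea, in libraries that share nothing with the 24 h and 48 h groups. Of these, 1400 fell from 24 h to 48 h (39.3%), 90 rose (2.53%) and 2069 were not called, beside 12.14% and 7.01% of all genes. Their median change was −0.83 in L-Glu and 0.17 in urea, and the test of the difference called 1261 of them lower and 29 higher. The median difference between L-Glu and urea in this class was 1.99 at 12 h, 2.38 at 24 h and 1.43 at 48 h on the log2 scale. At 24 h 3126 of them (87.8%) were called higher in L-Glu than in urea, where 27.4% of all genes were, and at 48 h 2278 (64.0%) were, where 21.4% of all genes were. These comparisons with urea share the L-Glu libraries with the change itself and are given side by side only. The count of 1400 became 639 without L-Glu 24 h replicate 1, 863 without L-Glu 24 h replicate 2, 873 without L-Glu 48 h replicate 1, and 640 at equal totals, where 195 of the class rose. The count of 90 became 40 without L-Glu 24 h replicate 1 and 47 without L-Glu 24 h replicate 2.

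Among genes that were lower in L-Glu than in urea at 12 h, the share without a call was near that of all genes. Of 1946 such genes (9.73% of all genes), 242 rose (12.4%) and 115 fell (5.91%), beside 7.01% and 12.14% of all genes. The other 1589 (81.7%) were not called, where 19.2% of all genes were called in either direction. The median difference from urea was −1.32 at 12 h, −1.50 at 24 h and −1.08 at 48 h. At 24 h 1485 of them (76.3%) were called lower in L-Glu than in urea, beside 27.7% of all genes, and at 48 h 986 (50.7%) were, beside 19.4% of all genes. The count of 242 became 83 without L-Glu 24 h replicate 1, 120 without L-Glu 24 h replicate 2, 115 without L-Glu 48 h replicate 1, 555 after quantile normalisation and 1753 at equal totals. The count of 115 became 37, 48 and 69 without the same 3 libraries in turn. Of the 14496 genes in neither class, 913 fell (6.298%) and 1071 rose (7.39%).

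**Figure D2:**
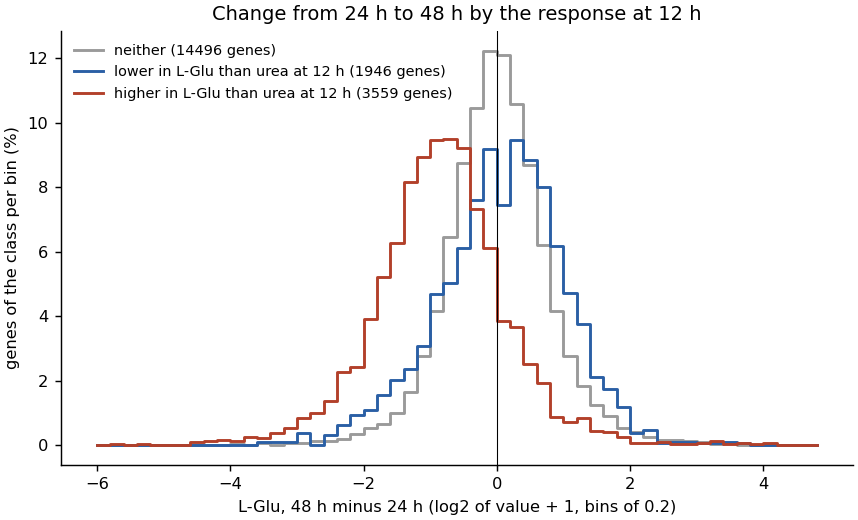
Distribution of the change from L-Glu 24 h to 48 h (x axis, log2 of value + 1, bins of 0.2) as a percentage of each class of genes (y axis), for genes higher, lower or neither in L-Glu than in urea at 12 h. The class of 3559 genes higher at 12 h lies to the left with a median of −0.83, while the 14496 genes of neither class centre on 0.01.

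Chaperones of the heat shock response gave 6 of the 12 largest rises. Of 15 small heat shock proteins, which hold unfolding proteins until other chaperones refold them, 14 rose and none fell, with a median change of 3.36, beside 7.01% of all genes called higher. In urea limma called none of the 15, with 5 higher and 0 lower at an unadjusted p under 0.05, and their median change was 0.59, and the test of the difference called 7 higher. The summed value of the 15 ran from 799 to 5319 at L-Glu 24 h and from 12623 to 27488 at L-Glu 48 h, and in urea from 39.02 to 87.1 at 24 h and from 90.2 to 237 at 48 h. Leaving out each L-Glu library in turn left 11 to 14 called higher. The member that was not called, AT5G54660, had a change of −0.06 on the log2 scale.

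HSP17.6II, a class II small heat shock protein of the cytosol, was at 64.0, 47.3 and 305 in L-Glu 24 h replicates 1 to 3 and at 2509, 1145 and 1726 at 48 h. All 48 h libraries were above all 24 h libraries, and replicate 3 was the highest at 24 h. The change was 4.11 (SE 0.58, limma adjusted p = 0.00201). HSP70T-2, a member of the HSP70 family, was at 38.0, 24.4 and 155 and then at 1831, 836 and 912. It had the largest rise of the genes without overlap, 4.38 (SE 0.57, limma adjusted p = 0.00141), and in urea its change of 0.64 did not pass the test. HSP17.4, whose promoter is shown above, was at 167, 75.2 and 575 and then at 1686 to 3778, a change of 3.70 (SE 0.60, limma adjusted p = 0.00367). Without L-Glu 24 h replicate 3 the changes of HSP17.6II, HSP70T-2 and HSP17.4 became 4.93, 5.15 and 4.49, and without L-Glu 24 h replicate 2 that of HSP17.4 became 3.03. HSP23.6-MITO, a mitochondrial small heat shock protein, was at 294, 93.1 and 829 and then at 5132, 1718 and 4150.2, while all 3 urea 24 h libraries and 2 of the urea 48 h libraries listed it at 0. Its groups did not overlap, and its change was 3.54 (SE 0.68, limma adjusted p = 0.00718), or 2.75 without L-Glu 24 h replicate 2 and 4.32 without L-Glu 24 h replicate 3. HSP21, the chloroplast small heat shock protein, was at 13.2, 8.04 and 74.3 and then at 246, 199 and 124. It rose by 3.11 (SE 0.65, limma adjusted p = 0.0101), with an adjusted p of 0.0533 without L-Glu 24 h replicate 1, and the change was 2.49 without L-Glu 24 h replicate 2 and 4.02 without L-Glu 24 h replicate 3.

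The 16 heat shock factors and large chaperones moved in both directions. The chaperones and co-chaperones of the list all rose, and with MBF1C and the factors HSFA2, HSFA7A and AT-HSFB2B they made 12 rises against 3 falls. Their median was 2.20 beside 0.72 in urea, where 4 rose. The test of the difference between the L-Glu and urea changes called 3 of the 16 higher and 3 lower. The median difference from urea was 0.98 at 12 h, 3.16 at 24 h and 3.13 at 48 h. BAG6, a co-chaperone, was at 267, 148 and 1123 at 24 h and at 5461, 2273 and 4188 at 48 h, a change of 3.39 (SE 0.63, limma adjusted p = 0.00652) without overlap, or 2.76 without L-Glu 24 h replicate 2 and 4.22 without L-Glu 24 h replicate 3. MBF1C, a heat-induced coactivator, was at 48.9, 26.1 and 91.7 and then at 657, 325 and 702, a change of 3.41 (SE 0.43, limma adjusted p = 0.00128). HSP101, the disaggregase needed for acquired thermotolerance, was at 709, 241 and 2912 and then at 12118, 4448 and 8696. The groups of HSP101 did not overlap, its change was 3.29 (SE 0.75, limma adjusted p = 0.0152), and without L-Glu 24 h replicate 1 or 2 the call was lost at adjusted p of up to 0.0704. The HSP101 change was 2.43 without L-Glu 24 h replicate 2 and 4.23 without L-Glu 24 h replicate 3. HSFA2, the heat shock factor that prolongs the response, was at 171, 34.9 and 637 and then at 2206, 676 and 1785. Its change of 3.14 (SE 0.84, limma adjusted p = 0.0271) was 2.07 without L-Glu 24 h replicate 2 and 4.14 without L-Glu 24 h replicate 3. The HSFA2 call was lost without L-Glu 24 h replicate 1 or 2 or L-Glu 48 h replicate 1 or 3, with adjusted p of up to 0.0862.

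The 3 members that fell were heat shock factors of the A class, named here after their values were seen: HSFA3 by a log2 change of −1.85, HSF A4A by −1.63 and HSFA8 by −0.85. At 12 h the values of these 3 in L-Glu lay above those in urea by 3.66, 4.94 and 3.61. The 12 rises of this list became 3 without L-Glu 24 h replicate 1, 5 without L-Glu 24 h replicate 2 and 7 without L-Glu 48 h replicate 1, and the 3 falls became 1, that of HSFA3, in each of these fits. The HSF A4A call was also lost without L-Glu 48 h replicate 2 and the HSFA8 call without L-Glu 24 h replicate 3. Both heat shock lists kept medians above 0 under every scaling tried.

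Of 17 chaperones of the endoplasmic reticulum, 4 rose and 1 fell, beside 7.01% and 12.14% of all genes. Their median change was 0.58 beside 0.27 in urea, where 2 rose, and the test of the difference called 2 lower and none higher. TIN1, induced by tunicamycin, was at 21.3, 12.5 and 48.5 and then at 375, 211 and 206, without overlap, a change of 3.37 (SE 0.43, limma adjusted p = 0.00138). ATERDJ3A, a J-domain co-chaperone, was at 28.0, 19.8 and 27.6 and then at 279.8, 212 and 166, a change of 3.06 (SE 0.27, limma adjusted p = 2.03e-04). BIP1 and BIP3, HSP70 proteins of this compartment, rose by 0.91 and 1.61, and CRT3, a calreticulin needed to fold immune receptors, fell by 1.45. Without L-Glu 24 h replicate 1 or without L-Glu 48 h replicate 1, the calls of BIP1 and BIP3 were lost, without L-Glu 48 h replicate 3 there were 2 falls, and 8 rises passed after quantile normalisation and 14 at equal totals. Of 20 proteasome genes limma called none, with 2 higher and 0 lower at an unadjusted p under 0.05 and a median of 0.09, and at equal totals 9 rose. Without L-Glu 24 h replicate 3, 1 proteasome gene rose.

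**Figure D3:**
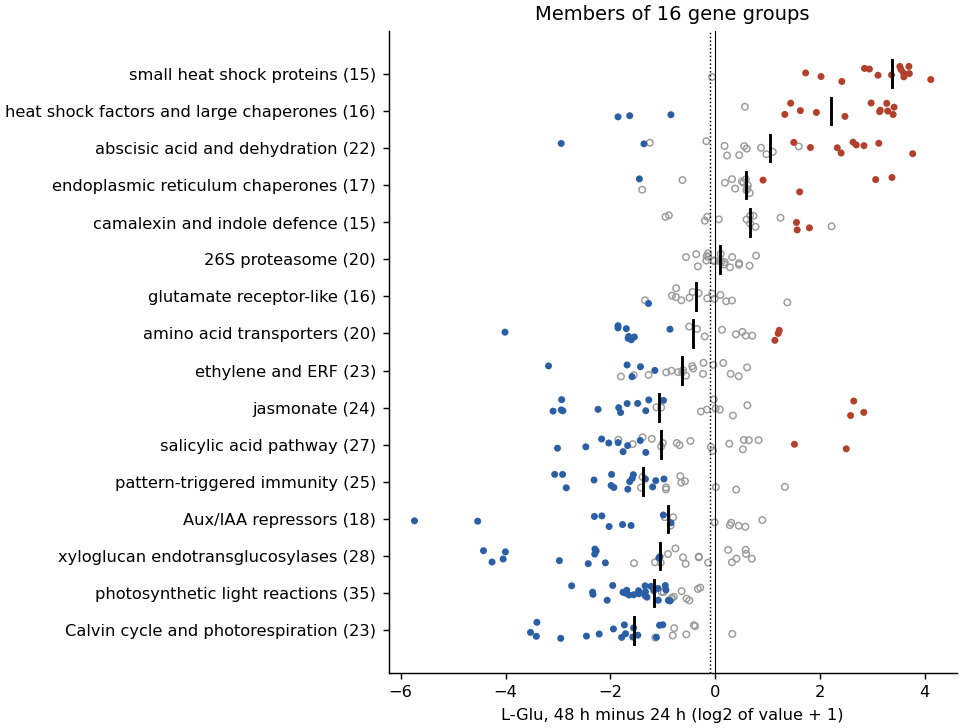
Change from L-Glu 24 h to 48 h (x axis, log2 of value + 1) of the members of 16 gene groups, with the number measured in parentheses. Filled points passed the test, open points did not, black bars are group medians and the dotted line is the median of all genes, −0.09. The small heat shock proteins sit highest. No called member lies above 0 in the light reaction, Calvin cycle, immunity, ethylene, Aux/IAA, xyloglucan endotransglucosylase, glutamate receptor-like and proteasome groups.

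Some dehydration genes of the abscisic acid list rose. Of 22 members, 9 rose, 2 fell and 11 were not called. The median change was 1.04 beside 0.08 in urea, and the test of the difference called 6 higher and 1 lower. The median difference from urea was 0.07 at 12 h, 0.23 at 24 h and 1.40 at 48 h. LEA4-5, which protects proteins and membranes in drying cells, was at 6.44, 7.14 and 5.13 at 24 h and at 53.3, 303 and 55.7 at 48 h. All 48 h libraries were above the 24 h libraries, and replicate 2 was far above its group mates. The change was 3.77 (SE 0.59, limma adjusted p = 0.00298), and 2.95 without that replicate. LTI78, also called RD29A and induced by cold, salt and drought, was at 62.1, 35.6 and 109 and then at 428, 926 and 232, a change of 2.84 (SE 0.49, limma adjusted p = 0.00508). It fell in urea by 1.05, and the 2 changes differed by 3.89 (SE 0.59, limma adjusted p = 0.00102). HB-7 (AT2G46680), a homeobox factor of the abscisic acid pathway, was at 38.1, 46.4 and 61.0 and then at 372, 942 and 214, a change of 3.12 (SE 0.45, limma adjusted p = 0.00212). P5CS1, which makes the first committed step of proline synthesis and belongs to the glutamate metabolism list, rose by 1.54 (SE 0.28, limma adjusted p = 0.00614).

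DREB2A, a factor of drought and heat responses chosen here after its values were seen, rose by 2.69 from means of 1151 to 6055, or by 3.32 without L-Glu 24 h replicate 3. CYP707A3, which breaks down abscisic acid, went the other way and was at 4298, 3724 and 3193 and then at 391, 336 and 858, without overlap, a change of −2.94 (SE 0.36, limma adjusted p = 0.00114). RD22, named after its values were seen, was the other fall, by 1.36 (limma adjusted p = 0.0432). The RD22 call was lost in every fit that left out an L-Glu library. NCED3, the rate-limiting enzyme of abscisic acid synthesis, had a change of 0.98 and was not called. Leaving out each L-Glu library in turn left 7 to 10 rises in this list, with 2 falls without L-Glu 24 h replicate 1 and 1 fall in each other fit, and 16 rises and 1 fall were called at equal totals.

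Lists of secondary metabolism and detoxification held calls in both directions. In the list of camalexin and indole defence, 3 of 15 members rose and none fell, beside 6 that rose in urea, and the test of the difference called 1 higher and 1 lower. CYP79B2, which makes indole-3-acetaldoxime from tryptophan, was at 302, 489 and 403 and then at 1374, 2399 and 763, without overlap, a change of 1.80 (SE 0.38, limma adjusted p = 0.0111), with an adjusted p of 0.0631 without L-Glu 24 h replicate 1. CYP79B3, its close homologue, rose by 1.55, while PAD3, the last enzyme of camalexin synthesis, had a change of −0.20 and was not called. Without L-Glu 24 h replicate 1, 1 of the 3 rises passed, and without L-Glu 48 h replicate 3 there were 6 rises and 2 falls, and at equal totals 7 rose. ELI3-2, annotated as a cinnamyl alcohol dehydrogenase, was at 4.18, 45.9 and 16.9 and then at 220.2, 901 and 120.0, a change of 4.15 (SE 0.81, limma adjusted p = 0.00792) that became 3.32 without L-Glu 24 h replicate 1, 4.91 without L-Glu 24 h replicate 2, 3.33 without L-Glu 48 h replicate 2 and 4.77 without L-Glu 48 h replicate 3. In urea its change of 2.78 did not pass the test, and neither did the difference of the 2 changes, 1.37. MYB117, a transcription factor of organ boundaries, was at 0.529, 6.84 and 2.49 and then at 29.4, 80.4 and 44.0, a change of 3.79 (SE 0.61, limma adjusted p = 0.00331), or 3.20 without L-Glu 24 h replicate 1 and 4.38 without L-Glu 24 h replicate 2.

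In the phenylpropanoid list of 20, 3 genes rose and 2 fell. 4CL2, which activates cinnamic acids for lignin and flavonoids, was at 97.4, 82.4 and 69.1 and then at 246, 336 and 185, a change of 1.59 (SE 0.26, limma adjusted p = 0.00367). DFR, the entry to anthocyanins, was at 15.9, 22.5 and 13.1 and then at 0.681, 0.286 and 2.36, a change of −3.20 (SE 0.51, limma adjusted p = 0.00335), and it fell in urea too, by 2.91. Leaving out any L-Glu library but 48 h replicate 3 left 1 of the 3 rises, and without that replicate 5 rose. In the detoxification list of 30, 4 rose and 3 fell, beside 7.01% and 12.14% of all genes, with a median change of 0.05. In urea 7 rose and none fell, with a median of 0.65, and the test of the difference called 8 lower and 1 higher in L-Glu. GSTU5, a glutathione transferase, was at 117, 57.3 and 214 and then at 529, 725 and 659, a change of 2.48 (SE 0.39, limma adjusted p = 0.00329). NDB4, an alternative NADH dehydrogenase of mitochondria, was at 5288, 4657 and 4364 and then at 879.9, 1136 and 1288, a change of −2.13 (SE 0.30, limma adjusted p = 0.00197). Without L-Glu 48 h replicate 3, 7 genes of this list rose and 5 fell, and without L-Glu 24 h replicate 1, L-Glu 24 h replicate 2 or L-Glu 48 h replicate 1 there were 3 rises and 2 falls. At equal totals 11 rose and 3 fell.

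**Figure D4:**
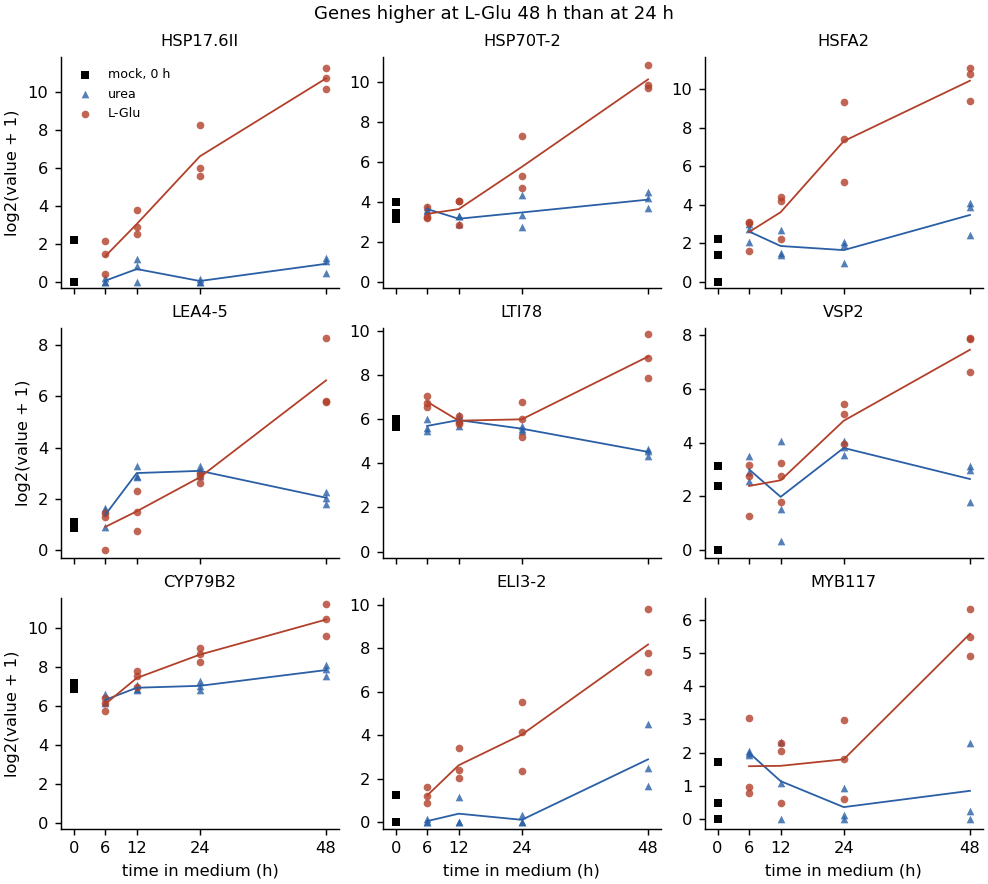
Log2(value + 1) over time in medium for 9 genes that were higher at L-Glu 48 h than at 24 h, with 1 point per library and lines through the group means of L-Glu (circles), urea (triangles) and mock at 0 h (squares). The L-Glu points of all 9 genes are highest at 48 h, and LTI78 lies 0.42 above urea at 24 h and 4.31 above it at 48 h.

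Genes of pattern-triggered immunity, the response to microbial patterns, faded. Of 25 measured, 15 fell and none rose, with a median of −1.39 beside 0.25 in urea, and beside 12.14% of all genes called lower. The test of the difference between L-Glu and urea called 16 of them lower and none higher, where 9.17% of all genes were called lower. The median difference from urea was 4.10 at 12 h, 4.78 at 24 h and 3.70 at 48 h, and at 48 h 24 of the 25 were still called higher in L-Glu than in urea. FRK1 was at 2555, 2144 and 875 at L-Glu 24 h and at 136, 165 and 493 at 48 h. Its groups did not overlap, and its change was −2.91 (SE 0.51, limma adjusted p = 0.00506). In urea FRK1 rose by 1.39, from 257, 183 and 94.9 to 507, 536 and 301, so that by 48 h its values in L-Glu lay within or below those in urea.

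FLS2 (AT5G46330), the receptor of bacterial flagellin, was at 2746, 1767 and 2182 and then at 332, 275 and 942, a change of −2.31 (SE 0.42, limma adjusted p = 0.0062). PHI-1 was at 9152, 7059 and 7444 and then at 629.9, 744 and 1755, a change of −3.06 (SE 0.42, limma adjusted p = 0.00168). WRKY18, a transcription factor of basal defence, was at 1474, 1578 and 1456 and then at 135, 212 and 318, a change of −2.84 (SE 0.30, limma adjusted p = 5.00e-04). None of these 3 genes had overlapping groups, and L-Glu 48 h replicate 3 was the highest of its group in each. Members without a call included MPK3, a MAP kinase, at −1.39, WRKY33 at −1.42, and PROPEP1, the precursor of a danger peptide, at 1.33, named after their values were seen. WRKY53, also a factor of leaf senescence, was at 2935, 2548 and 1728 and then at 467, 558 and 1841, overlapping groups with a change of −1.58 (SE 0.48, limma adjusted p = 0.0419), or −2.20 without L-Glu 48 h replicate 3. The WRKY53 call was lost without any of the other 5 libraries, with adjusted p of up to 0.15. The 15 falls became 6 without L-Glu 24 h replicate 1, 8 without L-Glu 24 h replicate 2 or without L-Glu 48 h replicate 1, and 9 without L-Glu 48 h replicate 2. Among all genes the 2428 lower calls became 912, 1302, 1393 and 1881 in these fits, in the order named. At equal totals 8 fell and 2 rose, and after quantile normalisation 6 fell.

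The salicylic acid pathway also faded in part. Of 27 genes, 9 fell and 2 rose, with a median of −1.03 beside 0.12 in urea. EDS16, the isochorismate synthase ICS1 that makes most salicylic acid in infected leaves, was at 5368, 13244 and 6906 and then at 956, 1682 and 3366. The groups did not overlap, the change was −2.17 (SE 0.52, limma adjusted p = 0.0186), and it kept a difference of 3.72 from urea at 48 h. Its call was lost without L-Glu 24 h replicate 2, L-Glu 48 h replicate 1 or L-Glu 48 h replicate 2, with adjusted p of up to 0.0723. ALD1, which starts the synthesis of pipecolic acid, the signal of systemic resistance, was at 257, 534 and 187 and then at 17.9, 30.3 and 82.8, a change of −3.01 (SE 0.52, limma adjusted p = 0.00494), or −3.60 without L-Glu 48 h replicate 3. SAG101, a partner of the lipase-like protein EDS1, was at 2179.8, 2693 and 1813 and then at 283, 329 and 669, a change of −2.47 (SE 0.34, limma adjusted p = 0.00169).

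Of the pathogenesis-related marker genes of salicylic acid, none rose. PR1 was at 7.15, 10.02 and 4.04 at L-Glu 24 h and at 0.770, 0 and 2.75 at 48 h. In urea at 24 h PR1 was at 40.4, 23.65 and 7.74. Its L-Glu groups did not overlap, its change was −2.03 (SE 0.61, limma adjusted p = 0.0426), and the call was lost without any library but L-Glu 48 h replicate 3, with adjusted p of up to 0.141. BGL2, the glucanase PR2, had a change of −1.21 and PR5, a thaumatin-like protein, of −0.47, and neither was called. AT4G10500, an oxygenase that inactivates salicylic acid by hydroxylation, rose by 2.50 (SE 0.65, limma adjusted p = 0.0251). Its change was 1.63 without L-Glu 48 h replicate 2 and 3.12 without L-Glu 48 h replicate 3, and the call was lost without L-Glu 24 h replicate 1 or 2, with adjusted p of up to 0.0985. The 2 rises of the list became 1 without L-Glu 24 h replicate 1, and the 9 falls became 6 without L-Glu 24 h replicate 1, L-Glu 24 h replicate 3 or L-Glu 48 h replicate 2, 5 without L-Glu 24 h replicate 2 and 4 without L-Glu 48 h replicate 1. At equal totals 6 rose and 5 fell, and after quantile normalisation 2 rose and 5 fell.

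Jasmonate genes moved in both directions. Of 24, 12 fell and 3 rose, with a median of −1.08 beside −0.02 in urea. The test of the difference called 10 lower and 3 higher. Yet the median difference from urea was 2.04 at 12 h, 2.28 at 24 h and 2.64 at 48 h. In L-Glu 17 of the 24 were called higher than in urea at 24 h and 18 at 48 h, beside 27.4% and 21.4% of all genes. The falls took in enzymes of synthesis and JAZ repressors. OPR3, the peroxisomal reductase of jasmonate synthesis, was at 3878, 2215 and 2743 and then at 333, 288 and 543, a change of −2.94 (SE 0.32, limma adjusted p = 5.49e-04). AOC2, an allene oxide cyclase, was at 321, 284 and 388 and then at 28.6, 31.6 and 82.5, a change of −2.93 (SE 0.36, limma adjusted p = 0.00119), and it fell in urea too, by 1.45. JAZ7, a repressor that is itself induced by jasmonate, was at 450.1, 611 and 735 and then at 54.4, 63.8 and 89.9, a change of −3.09 (SE 0.26, limma adjusted p = 1.68e-04). The 24 h and 48 h groups overlapped in none of these 3 genes.

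The 3 rises were the vegetative storage proteins VSP1 and VSP2, late targets of the pathway, and CYP94B3, which inactivates the hormone. VSP2 was at 32.5, 14.3 and 42.5 and then at 232, 236 and 97.6, without overlap, a change of 2.64 (SE 0.44, limma adjusted p = 0.00395), while in urea its change of −1.16 did not pass the test. VSP1 rose by 2.83 and CYP94B3 by 2.58, both named after their values were seen. VSP1 changed by 2.07 without L-Glu 24 h replicate 3 and lost its call without L-Glu 48 h replicate 1 (limma adjusted p = 0.0515), and CYP94B3 changed by 1.96 without L-Glu 48 h replicate 2. CYP94C1, a further enzyme of hormone turnover, went down, from 990.0, 1082 and 994 to 136, 100.2 and 181, a change of −2.91 (SE 0.24, limma adjusted p = 1.67e-04). Leaving out each L-Glu library in turn left 9 to 13 falls and 2 or 3 rises.

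Of 23 ethylene genes, 5 fell and none rose, beside 12.14% of all genes called lower, and the median change was −0.63. The test of the difference from urea called 5 lower and none higher. The median difference from urea was 4.09 at 12 h, 4.29 at 24 h and 3.48 at 48 h. ACS11, an isoform of the rate-limiting enzyme of ethylene synthesis, was at 582, 702 and 391 and then at 52.8, 46.5 and 83.4, without overlap, a change of −3.18 (SE 0.29, limma adjusted p = 2.47e-04). ERF-1, a factor of ethylene and pathogen responses, was at 2606, 3204 and 3009 and then at 676, 1002 and 1362, a change of −1.59 (SE 0.32, limma adjusted p = 0.00847). The 5 falls became 2 without L-Glu 48 h replicate 2, 3 without L-Glu 24 h replicate 1, L-Glu 24 h replicate 2 or L-Glu 48 h replicate 1, and 10 without L-Glu 48 h replicate 3. At equal totals the median of the list was −0.01, with 3 rises and 3 falls.

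Auxin and cell wall genes gave 5 of the 12 largest falls. These families were added after the largest changes had been seen, and every measured member was counted. Of 18 Aux/IAA repressors, which auxin both induces and degrades, 9 fell and none rose, with a median of −0.91 beside −0.16 in urea. IAA29 was at 254, 298 and 214 at L-Glu 24 h and at 5.27, 0.372 and 11.5 at 48 h, with urea values from 0 to 2.75 at both times. The groups lay far apart, with a change of −5.74 (SE 0.65, limma adjusted p = 7.25e-04), or −4.84 without L-Glu 48 h replicate 2 and −6.43 without L-Glu 48 h replicate 3. SHY2, also known as IAA3, was at 880.5, 841 and 1008 and then at 49.3, 20.3 and 55.5, a change of −4.53 (SE 0.34, limma adjusted p = 9.72e-05). At equal totals 7 of the 18 fell and 4 rose.

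Of 28 xyloglucan endotransglucosylases, enzymes that cut and rejoin wall polymers as cells expand, 12 fell and none rose, with a median of −1.05 beside −0.25 in urea. XTH4 was at 993, 1066 and 888 and then at 62.1, 29.9 and 48.24, while in urea it was at 538, 556 and 587 and then at 346, 529.6 and 492. It had the smallest adjusted p of the falls named here, with a change of −4.42 (SE 0.27, limma adjusted p = 4.51e-05). XTH9 was at 1484, 1419 and 1845 and then at 115, 37.7 and 123, a change of −4.26 (SE 0.39, limma adjusted p = 2.87e-04). TCH4, a touch-induced member of the family, was at 27612, 19794 and 30545 and then at 3435, 3410.5 and 9249, a change of −2.42 (SE 0.62, limma adjusted p = 0.0227), and the call was lost without any library but L-Glu 48 h replicate 3, with adjusted p of up to 0.121. The 12 falls became 8 without L-Glu 24 h replicate 2 and 7 without L-Glu 48 h replicate 1, and at equal totals 10 fell and 2 rose.

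Among 20 amino acid transporters, 9 fell, all of them importers, and 3 rose, and the test of the difference from urea called 9 lower and 1 higher. ProT3, a proline transporter, was at 98.8, 129 and 51.4 and then at 1.68, 4.76 and 9.57, without overlap, a change of −4.01 (SE 0.53, limma adjusted p = 0.00144). LHT1, a high-affinity importer of neutral and acidic amino acids, was at 3166, 3636 and 2184 and then at 709, 812 and 919, a change of −1.85 (SE 0.29, limma adjusted p = 0.00298), while in urea it rose by 0.83. The rises were SIAR1, a bidirectional transporter, by 1.22, and the glutamine dumpers GDU1, by 1.20, and GDU3, by 1.14, named after their values were seen. No rise passed without L-Glu 24 h replicate 1 or without L-Glu 24 h replicate 2, and 1 passed without L-Glu 48 h replicate 1 or without L-Glu 48 h replicate 2. The median of the list was −0.42, and 0.06 at equal totals, where 5 rose and 8 fell.

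In the list of glutamate, GABA, proline and asparagine metabolism, 4 of 24 genes rose and 5 fell, beside 7.01% and 12.14% of all genes. In urea 2 rose and 0 fell. The test of the difference called 3 higher and 7 lower, beside 4.18% and 9.17% of all genes. GAD4, a glutamate decarboxylase, was at 12605, 10995 and 4778 and then at 1582, 2288 and 4836, overlapping groups with a change of −1.75 (SE 0.54, limma adjusted p = 0.0477). The GAD4 call was lost without replicate 1 or 2 of either L-Glu group, with adjusted p of up to 0.18. GLU1, the ferredoxin-dependent glutamate synthase of leaves, fell by 1.55, and its homologue GLU2, named after its values were seen, rose by 1.08, a call lost without L-Glu 24 h replicate 1 (limma adjusted p = 0.053). ASN1, an asparagine synthetase of dark and starved leaves, was at 477, 3259.9 and 966 and then at 696, 1269 and 542, overlapping, and its change of −0.55 did not pass the test and turned to 0.20 without L-Glu 24 h replicate 2 and became −1.18 without L-Glu 24 h replicate 1, while in urea it rose by 2.23. Of the 9 calls, 1 rise and 1 fall remained without L-Glu 24 h replicate 1, 2 rises and 1 fall without L-Glu 24 h replicate 2, 3 rises and 2 falls without L-Glu 48 h replicate 1, and 2 rises and 3 falls without L-Glu 48 h replicate 2. At equal totals 9 rose and 1 fell, and after quantile normalisation 6 rose and 2 fell. Of 16 glutamate receptor-like channels, GLR2.7 alone was called, with a change of −1.28 (SE 0.30, limma adjusted p = 0.0161), and that call was lost without L-Glu 24 h replicate 1 or 2 or L-Glu 48 h replicate 1, with adjusted p of up to 0.0811, while 2 of the 16 fell without L-Glu 24 h replicate 3. GLR2.8 was at 451, 898 and 211 and then at 172, 309.6 and 418, overlapping groups with a change of −0.65 that did not pass the test.

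Among 24 genes of nitrate, ammonium and urea transport and reduction, 1 rose and 4 fell, near the shares of all genes, 7.01% and 12.14%. AMT2, an ammonium transporter, was at 343, 468 and 393 and then at 53.8, 166 and 74.8, a change of −2.17 (SE 0.36, limma adjusted p = 0.00389). NRT1.7, which loads nitrate into phloem, was at 111, 164 and 89.7 and then at 18.2, 41.2 and 29.5, a change of −2.03 (SE 0.34, limma adjusted p = 0.00435). Neither had overlapping groups. The 4 falls became 2 without L-Glu 24 h replicate 1, L-Glu 24 h replicate 2 or L-Glu 48 h replicate 1. No rise passed without L-Glu 24 h replicate 1 or 2, 3 passed without L-Glu 24 h replicate 3, and at equal totals 10 rose and 2 fell.

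**Figure D5:**
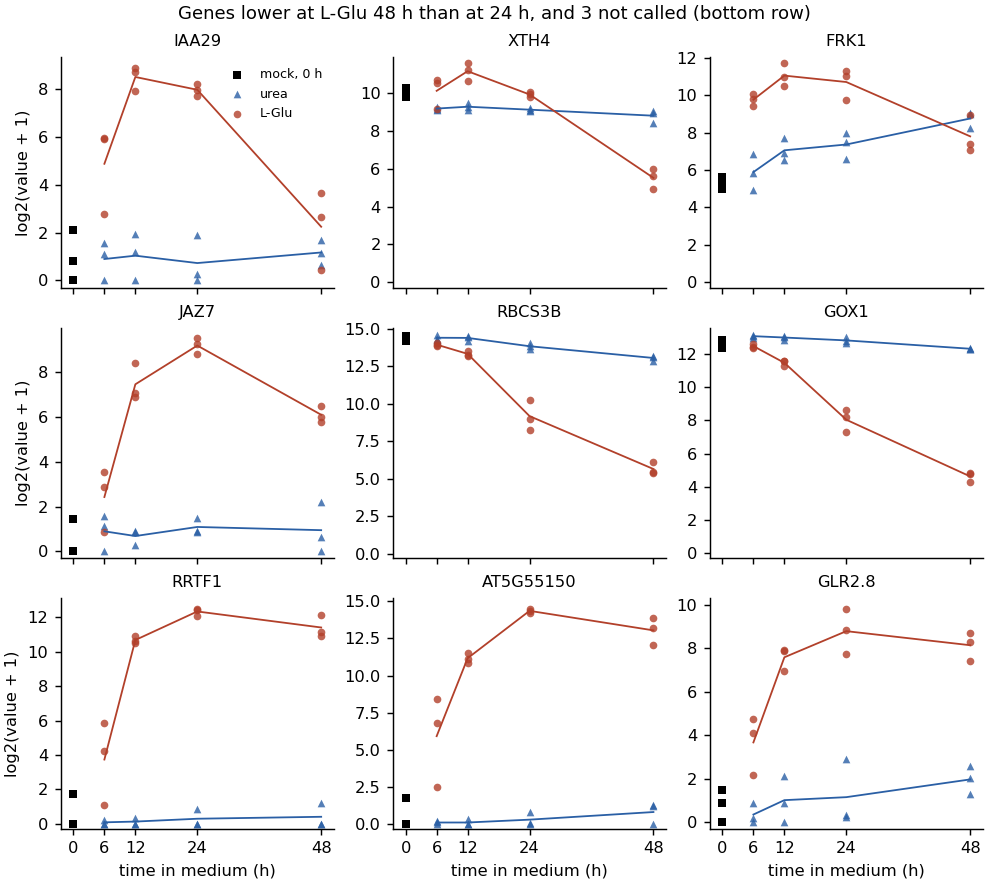
Log2(value + 1) over time in medium for 6 genes that were lower at L-Glu 48 h than at 24 h. The bottom row holds 3 genes without a call. Each library has 1 point, and lines run through group means of L-Glu (circles), urea (triangles) and mock at 0 h (squares). From 24 h to 48 h the difference from urea goes from 7.26 to 1.08 for IAA29, from 0.81 to −3.30 for XTH4 and from 3.35 to −0.96 for FRK1, RBCS3B and GOX1 keep falling away from urea, and RRTF1, AT5G55150 and GLR2.8 stay well above urea.

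Photosynthesis genes fell further. Of 35 nuclear genes of the light reactions, 24 fell and none rose, with a median of −1.17 beside −0.60 in urea, where 10 fell, and the test of the difference called 7 lower and none higher. The median difference from urea was −1.20 at 12 h, −3.60 at 24 h and −4.29 at 48 h, and all 35 were called lower than in urea at both of the later times. The summed value of the 35 ran from 6950 to 9797 at L-Glu 24 h and from 2545 to 3817 at L-Glu 48 h, against 93786 to 101303 and 60658 to 65382 in urea. NPQ4, the PsbS protein of photoprotective energy quenching, was at 261, 415 and 181 and then at 50.5, 34.3 and 35.6, without overlap. Its change was −2.74 (SE 0.31, limma adjusted p = 7.27e-04), beside −0.63 in urea. LHCB2.2, a light-harvesting protein of photosystem II, was at 77.1, 76.3 and 64.5 and then at 18.2, 10.7 and 23.2, a change of −2.06 (SE 0.33, limma adjusted p = 0.0032). The 24 falls became 14 without L-Glu 24 h replicate 1 and 12 without L-Glu 24 h replicate 2, and at equal totals 12 fell and none rose.

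Of 23 genes of the Calvin cycle and photorespiration, 16 fell and none rose, with a median of −1.56 beside −0.58 in urea, where 5 fell. The test of the difference called 9 lower and none higher, and the median difference from urea was −0.97 at 12 h, −4.42 at 24 h and −5.32 at 48 h. RBCS3B, a small subunit of Rubisco, was at 509, 1212 and 304 and then at 42.4, 41.3 and 66.6. The groups did not overlap, and its change was −3.52 (SE 0.43, limma adjusted p = 0.00111). The 4 Rubisco small subunit genes are near-identical copies, so the reads between them may have been split, but all 4 fell, by 2.46 to 3.52. Of these, RBCS1B lost its call without L-Glu 24 h replicate 1 (limma adjusted p = 0.0573), and its change of −3.40 became −2.71 without L-Glu 24 h replicate 2 and −4.23 without L-Glu 24 h replicate 3. GOX1, a glycolate oxidase of photorespiration that has a close copy in GOX2, was at 296, 388 and 155 and then at 26.2, 27.3 and 18.4, a change of −3.41 (SE 0.34, limma adjusted p = 4.05e-04). GOX2 had a change of −0.41 and was not called. The 16 falls became 10 without L-Glu 24 h replicate 1, and at equal totals 12 fell and 1 rose.

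The genes furthest above urea at 12 h were still far above urea at 48 h. The 12 genes with the highest difference at 12 h differed from urea by 9.29 to 11.05 on the log2 scale then, and by 6.31 to 12.22 at 48 h. Of these 12, 7 fell from 24 h to 48 h and none rose. The 7 falls became 3 without L-Glu 24 h replicate 1 or 2, 4 without L-Glu 48 h replicate 2 and 11 without L-Glu 48 h replicate 3. The calls of AT5G52050, sks8, BHLH92 and ACS8 were lost without either of the first 2 of these libraries. RRTF1, an ethylene response factor induced by reactive oxygen, was at 5790.4, 4382 and 5610.0 at 24 h and at 2259.6, 1972 and 4584 at 48 h. The groups overlapped, its change of −0.93 (SE 0.42, limma adjusted p = 0.143) was not called, and its values in urea lay between 0 and 1.27. AT5G55150, an F-box protein with a DUF295 domain, was at 22867, 21152 and 18924 and then at 4298, 9367 and 14817. Its groups did not overlap, yet its change of −1.31 (SE 0.66, limma adjusted p = 0.192) was not called, and after quantile normalisation its sign turned to 0.14. BHLH92, a transcription factor of stress responses, was at 14504, 13057 and 13005 and then at 2038, 1943 and 5879, a change of −2.24 (SE 0.52, limma adjusted p = 0.0162), and the call was lost without L-Glu 24 h replicate 1 or 2 or L-Glu 48 h replicate 2, with adjusted p of up to 0.0793. AT1G33760, of the ERF family, was at 1606, 1277 and 2051 and then at 125, 72.8 and 419.8, a change of −3.36 (SE 0.52, limma adjusted p = 0.00281), or −4.06 without L-Glu 48 h replicate 3. ACS8, an ethylene synthesis enzyme, was at 1849, 1635 and 1384 and then at 563, 600.1 and 1126, a change of −1.15 (SE 0.31, limma adjusted p = 0.0273), and the call was lost without replicate 1 or 2 of either L-Glu group, with adjusted p of up to 0.115.

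The 8 genes with the lowest difference at 12 h, from −4.76 to −3.53, were all without a call between 24 h and 48 h, and 1 rose without L-Glu 48 h replicate 1. Their differences from urea at 48 h ran from −5.91 to −1.40. MT3, a metallothionein, was at 75.4, 114 and 99.1 at L-Glu 24 h and at 123, 174 and 200.5 at 48 h, while urea held it at 979 to 1637 at these times. Its groups did not overlap, and its change of 0.77 (SE 0.25, limma adjusted p = 0.0583) missed the threshold. GASA6, a gibberellin-regulated peptide, was at 4.21, 3.64 and 10.1 and then at 9.83, 2.11 and 3.46, overlapping, with a change of −0.28 that turned to 0.11 without L-Glu 24 h replicate 3 or without L-Glu 48 h replicate 2.

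Lists of senescence and cell death were measured as well. Of 19 genes of leaf senescence and chlorophyll breakdown, 2 rose and none fell, beside 7.01% and 12.14% of all genes, with a median of 0.42 beside 0.43 in urea. NAC6, the senescence regulator also known as ORE1, was at 38.1, 55.9 and 59.3 and then at 167, 288 and 108, a change of 1.77 (SE 0.35, limma adjusted p = 0.00789). Of 11 genes of developmental cell death, 2 rose and 1 fell. MC8, a metacaspase, was at 505, 526 and 225 and then at 18.03, 92.9 and 76.1, without overlap, a change of −2.92 (SE 0.55, limma adjusted p = 0.00669), or −2.20 without L-Glu 48 h replicate 1. CEP1, a cysteine protease of dying cells, was at 13.4, 2.60 and 23.4 and then at 60.7, 118 and 50.4, a change of 2.74 (SE 0.63, limma adjusted p = 0.015), or 1.95 and 3.33 without L-Glu 24 h replicate 2 and 3. In each list 1 of the 2 rises was lost without L-Glu 24 h replicate 1, L-Glu 24 h replicate 2, L-Glu 48 h replicate 1 or L-Glu 48 h replicate 2. Without L-Glu 48 h replicate 3 the senescence list had 4 rises and 1 fall, and at equal totals 8 rises.

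Markers of other cell types were measured beside these groups. Of 18 root markers 1 rose and 1 fell, beside 7.01% and 12.14% of all genes, and their summed value ran from 5019 to 9351 at L-Glu 24 h and from 16711 to 21407 at L-Glu 48 h. PYK10, a root glucosidase of endoplasmic reticulum bodies, held most of that sum, with means of 6731 and 18216, and its change of 1.49 did not pass the test. No root marker was called without L-Glu 24 h replicate 1, no rise passed without L-Glu 48 h replicate 1, and 2 rose without L-Glu 24 h replicate 3, L-Glu 48 h replicate 2 or L-Glu 48 h replicate 3. Of 12 guard cell and epidermis markers 1 rose and 4 fell, with sums of 662 to 721 and 382 to 757. The rise, of FMA, was lost without any of the 6 libraries, and the 4 falls became 2 without L-Glu 24 h replicate 1. Of 11 phloem and vascular markers 1 rose and 2 fell, with sums of 844 to 1142 and 1184 to 1666. No vascular marker rose without L-Glu 24 h replicate 1, L-Glu 24 h replicate 2 or L-Glu 48 h replicate 1, 2 rose without L-Glu 48 h replicate 2, and 1 of the 2 falls was lost in each fit but that without L-Glu 24 h replicate 1. At equal totals the root markers had 7 rises and no fall, the guard cell markers 2 of each and the vascular markers 4 rises and no fall. SPCH, a stomatal lineage factor, was the marker listed at 0 in an L-Glu library, in 1 at 48 h. Only L-Glu 48 h replicate 2 listed any gene at 0 among these libraries. Of 13 genes of the mitochondrial genome 4 rose and none fell, with sums of 2162 to 4747 at 24 h and 10196 to 17283 at 48 h. The part of these changes in the results above was not tested.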

How the data were processed

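Expression was measured by RNA-seq of whole seedlings in 39 libraries, of which 6 made the comparison and 12 served beside it. The deposited table holds the authors' normalised expression signal for 20001 genes, 1 column per library, with values that are not whole counts, so depth is unknown. Among tools, edgeR 3.22.3, HTSeq 0.6.0 and TopHat2 2.1.0 are listed, with the build TAIR10, per the submitters' processing notes. How values were normalised or treated for gene length, and whether strand was used, is not stated in those notes or the labels. Antisense and overlapping genes are therefore uncertain. Fold changes are on the log2(value + 1) scale and understate changes of low genes, and levels of different genes are not compared.

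Groups were taken from the sample titles. In R 4.3.3, limma 3.58.1 (lmFit and eBayes with an intensity trend) was fitted per comparison on log2(value + 1) after a filter that asked for 3 libraries at 1 or more, which all 20001 genes passed, and p-values were adjusted by Benjamini and Hochberg over all genes, with a threshold of 0.05. The comparisons were 48 h against 24 h in L-Glu, the same in urea, the difference of these changes, and L-Glu against urea at 12, 24 and 48 h. Count models were not used because the values are not counts. The scripts were tested on simulated data. Alternatives were other pseudocounts, filters and scalings, 1 fit of all libraries, no intensity trend, a replicate block and leaving out each library.

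Genes were named by a rule: the 12 highest and 12 lowest called changes without overlap and with a mean of at least 10, the 12 highest and 8 lowest genes at 12 h, the 5 highest and 5 lowest differences from urea, up to 4 called members of each of 28 lists, and a set of known markers. Genes outside this rule were chosen after their values were seen, also where the text does not say so, as for PAD3, NCED3, GOX2, BIP1 and PYK10. The members, lists and rule were chosen with earlier results of these data known. Names came from RefSeq TAIR10.1, which matched 19887 identifiers and left 114 unmatched.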

Additional observations from a re-analysis of the deposited data

Results flagged for a closer look

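The changes from 24 h to 48 h differed between L-Glu and urea for 2672 genes in the limma test of the difference, and 10 genes are given here because they had the largest differences or are markers named above. Each value is the log2 change in L-Glu minus that in urea, and every one passed that test.

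Among dehydration and defence genes, the difference was 4.81 (SE 0.75) for LEA4-5, 3.89 (SE 0.59) for LTI78 and 3.80 (SE 0.65) for VSP2, all higher at 48 h in L-Glu in 3 of 3 libraries. It was 4.31 (SE 0.88) for AT1G52560, an HSP20-like chaperone that rose by 3.59 in L-Glu, or by 4.24 without L-Glu 24 h replicate 3, and was listed at 0 in 2 of the urea 48 h libraries. CYP71B12, a cytochrome P450, differed by 4.05 (SE 0.72), with L-Glu values of 0.563, 0.894 and 2.55 at 24 h and 26.2, 19.2 and 30.9 at 48 h.

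Among genes that fell in L-Glu, the difference was −6.18 (SE 0.98) for IAA29 and −6.42 (SE 0.86) for AT4G02170, a cotton fiber protein that was at 140, 164 and 156 and then at 2.86, 6.52 and 1.46. AT3G46280, a kinase-like protein, differed by −5.73 (SE 0.56): it fell by 4.25 in L-Glu and rose by 1.47 in urea. AT4G12500, annotated as a lipid transfer protein, differed by −6.85 (SE 0.85), with a change of −2.95 in L-Glu and 3.90 in urea, and its call in L-Glu was lost without L-Glu 24 h replicate 1 (limma adjusted p = 0.0594) and its change was −2.33 without L-Glu 48 h replicate 2. UGT74E2, a glycosyltransferase of the auxin indole-3-butyric acid, differed by −5.19 (SE 0.68). It rose by 4.37 in urea, from 3.69, 2.58 and 1.37 to 186, 44.4 and 40.5, while its L-Glu change of −0.82 was not called.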

How the results depend on the processing

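The 3831 calls in L-Glu became 6382 with every library at the same total and 7734 in 1 fit of all 39 libraries, and ran from 1379 to 3730 when libraries were left out. The share of calls that were higher became 48.06% after quantile normalisation and 84.0% at equal totals, and ran from 33.9% to 38.0% when libraries were left out. The 472 calls in urea became 260 in the fit of all libraries, 0 without an intensity trend in limma, where 2746 had an unadjusted p under 0.05, and 1014 with the replicate block, and ran from 82 to 437 when libraries were left out. The 2672 differences between L-Glu and urea became 4190 at equal totals and 4514 in the fit of all libraries, with 1792 to 3086 when libraries were left out.

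Of genes higher at 12 h, the 1400 that fell became 640 at equal totals (639 to 1513 when libraries were left out) and the 90 that rose became 195 (40 to 95). Of genes lower at 12 h, the 242 that rose became 555 after quantile normalisation, 1753 at equal totals and 483 in the fit of all libraries (83 to 243), and the 115 that fell became 309 in that fit (37 to 121). Other pseudocounts, filters and the trimmed mean scaling kept these counts within 1.5 times. The cause of these moves was not tested, beyond fewer libraries in the fits that left 1 out.

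Single genes turned sign only where they had no call: AT5G55150 to 0.14 and UGT74E2 to 0.40 after quantile normalisation, GASA6 to 0.23, AT1G73120 to 0.13 and ASN1 to 0.075 at equal totals. When libraries were left out GASA6 ran from −0.79 to 0.11 and ASN1 from −1.18 to 0.20. Same-numbered L-Glu libraries of 24 h and 48 h correlated at 0.0550, 0.172 and −0.0833 in their deviations from group means. Those of urea 24 h and 48 h correlated at −0.00239, 0.159 and 0.203, and those of L-Glu and urea at 12 h at 0.0213, 0.0874 and 0.0209. Differently numbered libraries ran from −0.208 to 0.162, −0.223 to 0.0793 and −0.0668 to 0.0457 in these sets. The numbers were not taken as pairs in the main fits. With the replicate block 3741 genes were called in L-Glu, 1014 in urea and 2747 in the difference. With 3 libraries a group and unknown depth, a missing call does not show that a gene stayed the same.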

Other observations

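Gene families outside the groups above, counted in full after their values were seen, also moved from 24 h to 48 h in L-Glu. Of 61 WRKY transcription factors 18 fell and 7 rose, with a median of −0.56, or 0.05 at equal totals, where 10 fell and 16 rose. The falls included WRKY40 by 1.99 and WRKY70 by 1.76, factors of defence, and the rises WRKY9 by 1.37 and WRKY45 by 1.44. The change of WRKY70 became −1.17 without L-Glu 24 h replicate 2, and the calls of WRKY70 and WRKY45 were each lost in 4 and that of WRKY9 in 3 of the 6 fits that left out an L-Glu library. Without L-Glu 24 h replicate 1 there were 6 falls and 1 rise, without L-Glu 24 h replicate 2 there were 7 and 2, and without L-Glu 48 h replicate 1 there were 8 and 2. The 7 rises became 4 without L-Glu 24 h replicate 3 and 2 without L-Glu 48 h replicate 2. Of 29 SAUR proteins, small auxin-induced proteins of cell expansion, 8 fell and 2 rose, and of 21 expansins, which loosen cell walls, 5 fell and none rose, with EXPA5 at −2.14 and EXLA1 at −2.34. The SAUR falls became 5 without L-Glu 24 h replicate 2 or L-Glu 48 h replicate 1, its rises became 1 without any L-Glu library, and the expansin falls became 3 without L-Glu 24 h replicate 1. At equal totals 7 SAUR genes fell and 4 rose, and 3 expansins fell and 7 rose.

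Of 88 genes of the chloroplast genome 6 fell and 1 rose, both below the shares of all genes, 12.14% and 7.01%. Their median was −0.78 beside 0.25 in urea, and at equal totals 1 fell and 8 rose. The counts were 1 fall and 2 rises without L-Glu 24 h replicate 2, 2, 1 and 3 falls without L-Glu 24 h replicate 1, L-Glu 48 h replicate 1 and L-Glu 48 h replicate 2, and 13 falls and 1 rise without L-Glu 48 h replicate 3. The 4 mitochondrial-genome genes that rose did so by 2.04 to 2.67, of which ATMG00020 lost its call without L-Glu 24 h replicate 1 or 2 and ATMG01360 changed by 1.85 without L-Glu 24 h replicate 1. Of 14 clock genes 3 fell, LHY by 0.71, PRR5 by 1.14 and PCL1 by 1.32, where the LHY call was lost in every fit that left out an L-Glu library. The PRR5 call was lost without L-Glu 24 h replicate 1, L-Glu 24 h replicate 3 or L-Glu 48 h replicate 1, so that 1 fall remained in each of these fits, and at equal totals 3 clock genes rose and none fell. Of 22 cell division genes 2 fell, with none without L-Glu 24 h replicate 1 or 3 and 1 without L-Glu 24 h replicate 2 or L-Glu 48 h replicate 2. Of 17 sugar starvation genes DIN11 rose by 2.05, where 7 rose in urea. The DIN11 change was 1.32 without L-Glu 48 h replicate 2, its call was lost without L-Glu 24 h replicate 1 or 3, and 2 of the 17 rose without L-Glu 24 h replicate 3 or L-Glu 48 h replicate 3. Of 16 autophagy genes ATG8H rose by 0.94, a call lost without any L-Glu 24 h library or L-Glu 48 h replicate 2, with adjusted p of up to 0.0959 in limma. At equal totals 8 starvation and 8 autophagy genes rose and 1 cell division gene rose and 1 fell. In the main test the counts of the cell division, starvation and autophagy lists lay below the shares of all genes, 12.14% lower and 7.01% higher.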
